A study of Mus musculus with 12 samples.

Results

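Chromatin in CD8+ T cells is written, erased, read and moved by a small number of gene families. The genes examined here were protein-coding genes named with the prefixes Kat, Kmt, Setd, Hdac, Sirt, Kdm, Brd, Chd, Arid or Smarc that had a mean of at least 1 FPKM (fragments per kilobase of gene length, scaled to library size) over the 12 libraries. By name and type, 110 of 54532 genes in the files matched, and 96 of them reached that mean. The members were chosen by the mean level over all libraries, so levels are given as a description, and the rule itself uses no difference between groups. The families were, however, chosen with earlier results of these data known. Among the 96 members, 93 belong to the families proper, and 3 share a prefix but belong to another family. None of these 3 passed the test in any comparison, so every count of members called below is the same without them.

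Lysine acetyltransferases (Kat) loosen nucleosomes by acetylating histone tails, and deacetylases of the Hdac and Sirt families remove those marks. Methyltransferases (Kmt, Setd) and demethylases (Kdm) set marks that are tied to active promoters and enhancers, to elongation or to silencing, depending on the residue. Bromodomain proteins (Brd) bind acetylated histones, and Chd, Smarc and Arid proteins form or join ATP-driven machines that slide or evict nucleosomes. In CD8+ T cells these families are known for their part in opening effector genes after activation and closing them as cells turn to memory or exhaustion.

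The libraries were RNA-seq of CD8+ T cells taken from mice and stimulated in culture. The cells received either a control siRNA with no target (siNTC) or an siRNA against Creb1 (siCreb1), the gene of the cAMP-responsive transcription factor CREB. Cells of both kinds were then kept for 24 h with TVA (trans-vaccenic acid, a dietary fatty acid) or with the vehicle DMSO, giving 4 groups of 3 libraries. The labels give the cells as wild type apart from the knockdown, and all groups had been activated and transfected, so no resting or untransfected cells are part of the comparison. A transient siRNA lowers a gene without removing it, and whether the 3 libraries of a group came from separate mice or cultures is not stated, so p-values measure only the spread between these libraries. The comparisons ask what TVA does to these genes, what loss of Creb1 does, and whether the TVA effect differs once Creb1 is lowered.

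The deposited values were whole reads scaled by length and depth, and they gave back 16660234 to 24602484 reads a library. Creb1 stood at 10.3 to 12.4 FPKM in the 6 siNTC libraries, with or without TVA, and at 1.17 to 1.81 in the 6 siCreb1 libraries. The summed level of 8 CD8 T cell markers was 2651 to 2835 FPKM, against 4.81 to 6.20 for CD4 T cell, 9.48 to 14.3 for B cell, 4.93 to 8.88 for myeloid and 3.83 to 5.24 for NK cell markers, at most 0.450 for erythroid and 0.127 for fibroblast markers. The myeloid markers were highest in the siCreb1 + TVA libraries, at 7.73 to 8.88 FPKM, of which Lyz2 made up most, and their part in the results was not tested. The 4 Y-linked genes looked at, Kdm5d among them, had no read in any library, and Xist ranged from 38.4 FPKM in siNTC to 60.5 in siCreb1 + TVA. In these bulk libraries, less RNA per cell and fewer cells of a type cannot be told apart. Of the 8 CD8 T cell markers, 5 were called lower and 1 higher after knockdown without TVA (adjusted p under 0.05, limma, which is what called means throughout). With TVA, 3 were called lower and 1 higher. Of all tested genes, 7.21% were lower and 6.52% higher without TVA, and 5.51% and 4.64% with TVA. The markers called lower differed by -0.16 to -0.08 on the log2(FPKM + 1) scale without TVA and by -0.14 to -0.08 with it, and Cd8a by 0.09 in both. After knockdown with TVA 1 myeloid marker was called higher, and no B, CD4 or NK cell marker was called in any comparison.

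Levels within a family spanned a wide range, and 2 of the 9 Chd members carried most of that family's summed FPKM. FPKM is scaled by the deposited gene length, which need not be that of the expressed transcripts, so levels of different genes compare only roughly. The NuRD remodelling ATPases Chd3 and Chd4 stood far above the other Chd genes, at means of 116 and 67.9 FPKM over the 12 libraries, and Chd9 was lowest of its family at 1.58. Among the Smarc genes, the SWI/SNF (BAF) subunit Smarcd2 led at 68.6 FPKM and Smarcad1 was lowest at 3.00, while the catalytic subunit Smarca4 was 3.30 to 3.59 times as high as its paralog Smarca2 in every library. Brd2, a BET protein that binds acetylated histones, led its family at 55.5 FPKM, against 9.57 for Brd3. The class IIa deacetylase Hdac7 reached 54.4 FPKM, and the cytoplasmic tubulin deacetylase Hdac6 was lowest at 3.08. Kmt2d, which methylates H3K4 at enhancers, led the Kmt genes at 38.8 FPKM, with Kmt5b lowest at 7.21.

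The other families had lower peaks. Arid1a, the DNA-binding subunit of BAF, stood at 36.8 FPKM and was 3.53 to 4.29 times as high as its paralog Arid1b across the libraries, and Arid3a was lowest at 2.71. Kat2a (GCN5) led the acetyltransferases at 25.8 FPKM against 1.79 for Kat6b, and Sirt7 led the sirtuins at 25.6 against 2.13 for the mitochondrial Sirt3. The H3K9 demethylase Kdm3a led its family at 22.6 FPKM, with Kdm8 lowest at 3.48, and Setd7 led the Setd genes at 20.9, with Setd4 lowest at 2.65. The members just above the limit of 1 FPKM were Chd9 at 1.58, Kat6b at 1.79 and Sirt3 at 2.13, and those just below it were Sirt5 at 0.700, Brdt at 0.676 and Smarcd3 at 0.447.

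**Figure D1:**
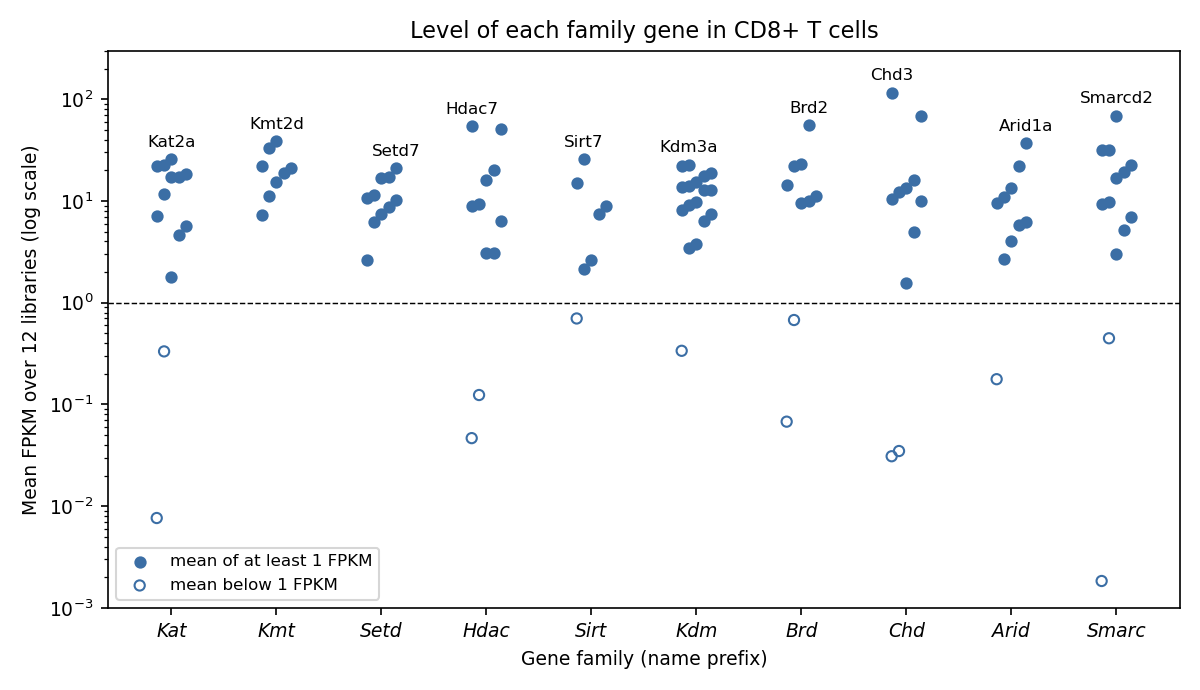
Mean FPKM over 12 libraries (log axis) of the family genes, by name prefix on the x axis; filled points reach the dashed line at 1 FPKM, open points do not, and Kdm5d, at 0, is not drawn. Chd3, Chd4 and Smarcd2 stand highest, at 116, 67.9 and 68.6 FPKM.

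The 14 matched genes that did not reach the limit had few reads. The neuronal remodeller Chd5 had at most 16 reads in a library, Hdac9 at most 26, Hdac11 at most 14, Arid3c at most 11, and the ISWI ATPase Smarca1 had 1 read or none in each. The testis-associated genes Brdt and Kdm4d had 53 to 89 and 11 to 34 reads, the mitochondrial desuccinylase Sirt5 had 48 to 124, and the muscle BAF subunit Smarcd3 had 31 to 72. Katnal1, Katnal2, Chdh and Brd3os, with at most 118, 3, 8 and 10 reads, carry a prefix but belong to other families, and the Y-linked Kdm5d had 0 reads in all 12 libraries. None of these 14 entered the main test.

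Changes between the groups were small. The widest difference of any member on the log2(FPKM + 1) scale, which understates the change of low genes, was -0.32, for Hdac5 after Creb1 knockdown. With TVA in siNTC cells the members ranged from -0.18 to 0.18 and with TVA in siCreb1 cells from -0.25 to 0.18, and 0 of 96 reached a difference of 0.3 in either, against 7.65% and 4.67% of all 11550 tested genes. After Creb1 knockdown, 1 of 96 reached 0.3 without TVA and 1 of 96 with TVA, against 8.74% and 7.89% of all tested genes. The member with TVA was Sirt4, a low-level mitochondrial sirtuin singled out after its values were seen, whose difference of 0.30 ± 0.12 (SE) did not pass the test (adjusted p = 0.145, limma). The members had a median level of 11.9 FPKM and a median length of 7032 bases. For all tested genes these were 8.17 FPKM and 3738 bases. The part of level and length in shares of this kind was not tested.

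**Figure D2:**
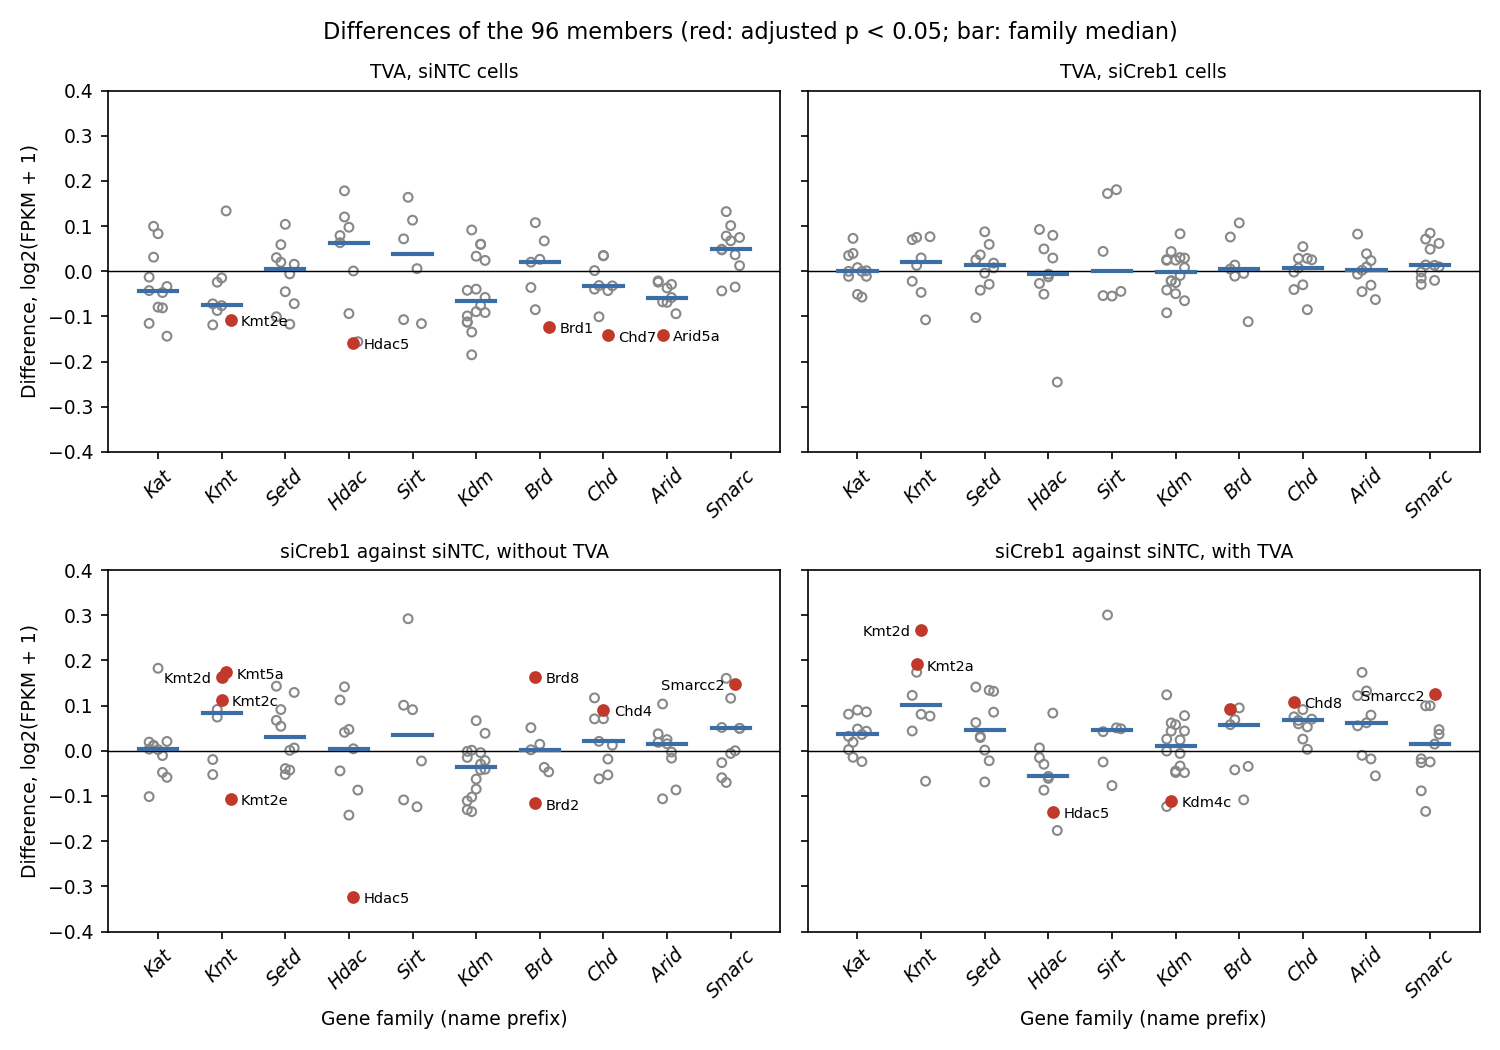
Each point is 1 of the 96 members, with its difference in log2(FPKM + 1) between 2 groups on the y axis and its family on the x axis; red points have an adjusted p under 0.05 and blue bars are family medians. Red points number 5, 0, 9 and 7 in the 4 panels and lie between -0.32 and 0.27.

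TVA in siNTC cells lowered 5 members and raised none at an adjusted p under 0.05 (limma, Benjamini-Hochberg over all tested genes). They were the deacetylase Hdac5, the remodeller Chd7, the acetyltransferase scaffold Brd1, the MLL-family gene Kmt2e and Arid5a, whose product binds and stabilises inflammatory mRNAs. Of all tested genes, 7.38% were called, 4.49% higher and 2.88% lower, beside 5 of 96 members, all lower. At an unadjusted p under 0.05, 24 of 96 members were lower and 6 higher, against 10.5% of all tested genes in each direction. The libraries did not overlap for 26 members that were lower and 8 that were higher, against 12.2% and 11.7% of all tested genes. The median difference was -0.03 over the members and -0.01 over all tested genes. Scaled to TPM, none of the 5 calls remained, and fitting only the 6 libraries compared also left 0, while limma-voom on the recovered reads called 6 lower and 1 higher. Leaving out any 1 of the 12 libraries gave 0 to 3 calls, with 0 without siNTC + TVA replicate 2, and the median over the members stayed between -0.04 and -0.02 under every scaling tried.

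**Figure D3:**
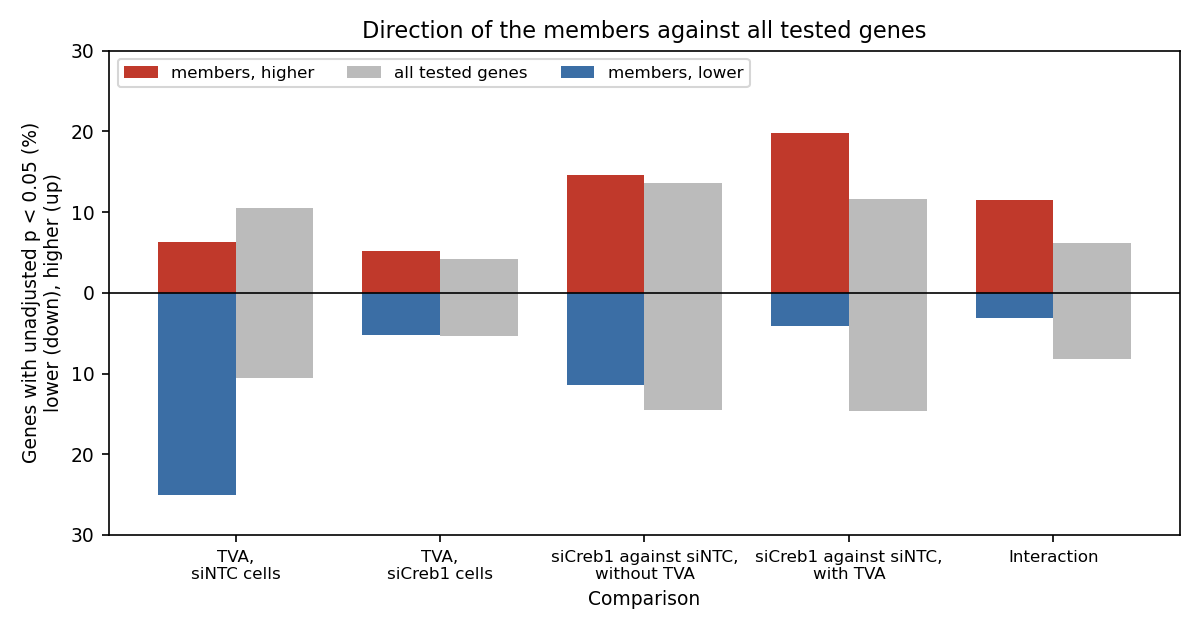
Percent of genes with an unadjusted p under 0.05 in each comparison, higher above 0 and lower below 0, for the 96 members (coloured) and all 11550 tested genes (grey). With TVA in siNTC cells 24 of 96 members are lower, against 10.5% of all tested genes, and after Creb1 knockdown with TVA 19 of 96 are higher, against 11.6%.

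Among the methyltransferases, Kmt2d rose after Creb1 knockdown both without and with TVA, and Kmt2a rose with TVA. Kmt2d (chr15:98831669-98871204 in GRCm38, minus strand) stood at 36.96, 37.7 and 35.6 FPKM in the siNTC libraries, 34.7, 34.8 and 35.0 in siNTC + TVA, 42.2, 40.5 and 41.2 in siCreb1 and 43.3, 42.4 and 40.8 in siCreb1 + TVA. All 6 siCreb1 libraries were above all 6 siNTC libraries, with a mean 1.17 times as high. Without TVA the difference on the log2(FPKM + 1) scale was 0.16 ± 0.03 (SE, adjusted p = 0.00532, limma), and with TVA it was 0.27 ± 0.03 (adjusted p = 0.000853, limma). Both calls were kept in all 23 alternative analyses, which changed the pseudocount, filter, unit, scaling, model or test or left out 1 library.

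Kmt2a (MLL1, chr9:44803355-44881296, minus strand), the H3K4 methyltransferase that keeps Hox genes active, stood at 31.3, 32.7 and 33.1 FPKM in the siNTC libraries, 30.02, 30.4 and 30.9 in siNTC + TVA, 34.4, 34.6 and 34.7 in siCreb1 and 35.3, 35.9 and 33.6 in siCreb1 + TVA. The siCreb1 libraries again lay above all siNTC libraries, by a narrow gap between 33.2 and 33.6 FPKM. The difference was 0.09 ± 0.03 without TVA, which missed the threshold (SE, adjusted p = 0.0688, limma), and 0.19 ± 0.03 with TVA (adjusted p = 0.00447, limma), the latter kept in all 23 alternatives. Whether these differences themselves differ is the interaction, at 0.10 ± 0.04 (adjusted p = 0.308, limma).

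Kmt2c (MLL3), the paralog of Kmt2d at enhancers, stood at 14.8, 14.7 and 15.1 FPKM in the siNTC libraries, 14.7, 15.1 and 14.4 in siNTC + TVA, 16.5, 16.2 and 15.8 in siCreb1 and 15.7, 15.5 and 15.7 in siCreb1 + TVA. The 6 siCreb1 libraries lay above the 6 siNTC libraries here too. Without TVA it rose by 0.11 ± 0.03 (SE, adjusted p = 0.0227, limma), and the adjusted p was 0.000656 to 0.0905 over the alternatives, with the call lost without siNTC replicate 1 or 2, without siCreb1 replicate 1 or 2 and with only the compared libraries. With TVA the difference was 0.08 ± 0.03 (adjusted p = 0.0931, limma). Kmt2b, which methylates H3K4 at promoters, was not called, at 22.0 ± 0.814 FPKM (SD, n = 3) in siNTC and 22.8 ± 0.720 in siCreb1 + TVA.

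The H3K4 methyltransferases Kmt2a, Kmt2b, Kmt2c, Kmt2d, Setd1a and Setd1b summed to 121.0 ± 1.45 FPKM (SD, n = 3) in siNTC, 115.3 ± 0.717 in siNTC + TVA, 128.7 ± 0.382 in siCreb1 and 131.0 ± 2.95 in siCreb1 + TVA. The mean of this sum was lowest in siNTC + TVA, and both siCreb1 groups lay above both siNTC groups. Kmt2d and Kmt2a, described above, made up much of the sum, at 36.8 and 32.4 FPKM in siNTC. With TVA, all 6 of these genes were above 0 after knockdown under every scaling tried, beside 5312 of all 11550 tested genes in the main fit. Of the 6, 2 were called, Kmt2a and Kmt2d, against 4.64% of all tested genes called higher. Without TVA, 4 of the 6 were above 0 in the main fit and 5 in TPM. In the main fit Kmt2b and Setd1b lay below 0, at -0.02 and -0.04. Kmt2c and Kmt2d were called without TVA, against 6.52% of all tested genes called higher. This class was put together after the values were seen.

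Kmt2e (MLL5, chr5:23434441-23504235, plus strand), a PHD-finger protein of the MLL family with little methyltransferase activity of its own, was called in both comparisons against the siNTC libraries. It stood at 22.4, 21.7 and 22.0 FPKM in the siNTC libraries, 20.6, 20.4 and 20.1 in siNTC + TVA, 20.8, 19.97 and 20.4 in siCreb1 and 21.4, 21.6 and 21.6 in siCreb1 + TVA. The siNTC libraries were highest, siNTC + TVA and siCreb1 overlapped at the bottom, and siCreb1 + TVA lay between. It fell by 0.11 with TVA in siNTC cells (log2 difference -0.11 ± 0.02, SE, adjusted p = 0.0251, limma) and after knockdown without TVA (-0.11 ± 0.02, adjusted p = 0.0173), both against the same siNTC libraries. The first call was kept in 17 of 23 alternatives (adjusted p 0.0196 to 0.14) and was lost in TPM and without siNTC replicate 1 or 3 or siNTC + TVA replicate 2 or 3. The second was kept in 19 (adjusted p 0.0136 to 0.31) and was lost in TPM and without siNTC replicate 1 or siCreb1 replicate 2. In siCreb1 cells the TVA difference was 0.08 ± 0.02 (adjusted p = 0.328, limma).

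The difference between the TVA effects was 0.18 ± 0.03 for Kmt2e (SE, adjusted p = 0.0217, limma), the only member called for this interaction, against 2.24% of all tested genes, 0.459% above 0. The adjusted p over the alternatives was 0.00396 to 0.12, and the call was lost under TPM and when any of 7 libraries (siNTC + TVA replicates 2 and 3, siCreb1 replicates 2 and 3, each of the siCreb1 + TVA libraries) was left out. By limma-voom 1 member was above and 1 below 0. Of the exon bases of Kmt2e, 9.31% overlap other genes on either strand, the largest overlap being with Srpk2 on the opposite strand. Whether the counting used strand is not stated. At an unadjusted p under 0.05 the interaction over all members was above 0 for 11 members and below 0 for 3, against 6.15% and 8.2% of all tested genes. None of the 96 interactions reached 0.3, against 10.5% of all tested genes.

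Of the 3 H4K20 methyltransferases, 1 was called. Across the 5 comparisons 0.537% to 13.7% of all tested genes were called, a share that also stands beside the Setd genes in this paragraph. Kmt5a, which adds the first methyl group and acts in mitosis, rose after knockdown without TVA, from 17.4 ± 0.964 to 19.8 ± 0.905 FPKM (SD, n = 3), a difference of 0.17 ± 0.04 (SE, adjusted p = 0.027, limma, adjusted p 0.00199 to 0.0984 over the alternatives). The libraries did not overlap, but siNTC replicate 2, at 18.5 FPKM, came close to siCreb1 replicate 1 at 18.8, and the call was lost without siNTC replicate 1 or 3, without siCreb1 replicate 2 or 3, with no filter on low genes and with only the compared libraries. With TVA the knockdown difference was -0.07 ± 0.04 and was not called, and neither Kmt5b nor Kmt5c was called in any comparison. The Setd genes held no called member: Setdb1, which sets H3K9 methylation, had 6 siCreb1 libraries at 10.3 to 11.6 FPKM and 6 siNTC libraries at 9.56 to 10.1, with adjusted p of 0.0796 without and 0.086 with TVA (limma), and the H3K36 methyltransferase Setd2 was at 17.02 ± 0.331 and 17.4 ± 0.782 FPKM in its lowest and highest group.

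None of the 8 acetyltransferases was called in any comparison, beside 0.537% to 13.7% of all tested genes called across the 5 comparisons. Kat2b (PCAF) and Kat8 (MOF) had the lowest TVA differences in siNTC cells, at -0.12 ± 0.04 and -0.14 ± 0.09 (SE). Brd1, the scaffold that holds Kat6a and Kat7 in their complexes, did fall with TVA in siNTC cells. It stood at 24.4, 23.3 and 23.1 FPKM in the siNTC libraries, 21.7, 22.1 and 20.9 in siNTC + TVA, 22.3, 23.6 and 22.5 in siCreb1 and 20.9, 21.5 and 20.6 in siCreb1 + TVA. All 6 TVA libraries lay below all 6 libraries without TVA, with a mean 0.918 times as high. The TVA difference was -0.12 ± 0.03 in siNTC cells (SE, adjusted p = 0.0489, limma) and -0.11 ± 0.03 in siCreb1 cells (adjusted p = 0.273, limma), and its interaction was 0.01 ± 0.05. The first call lies at the threshold, was lost without any 1 of 11 libraries (all but siCreb1 replicate 2), and was kept in 6 of 23 alternatives (adjusted p 0.0285 to 0.151).

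**Figure D4:**
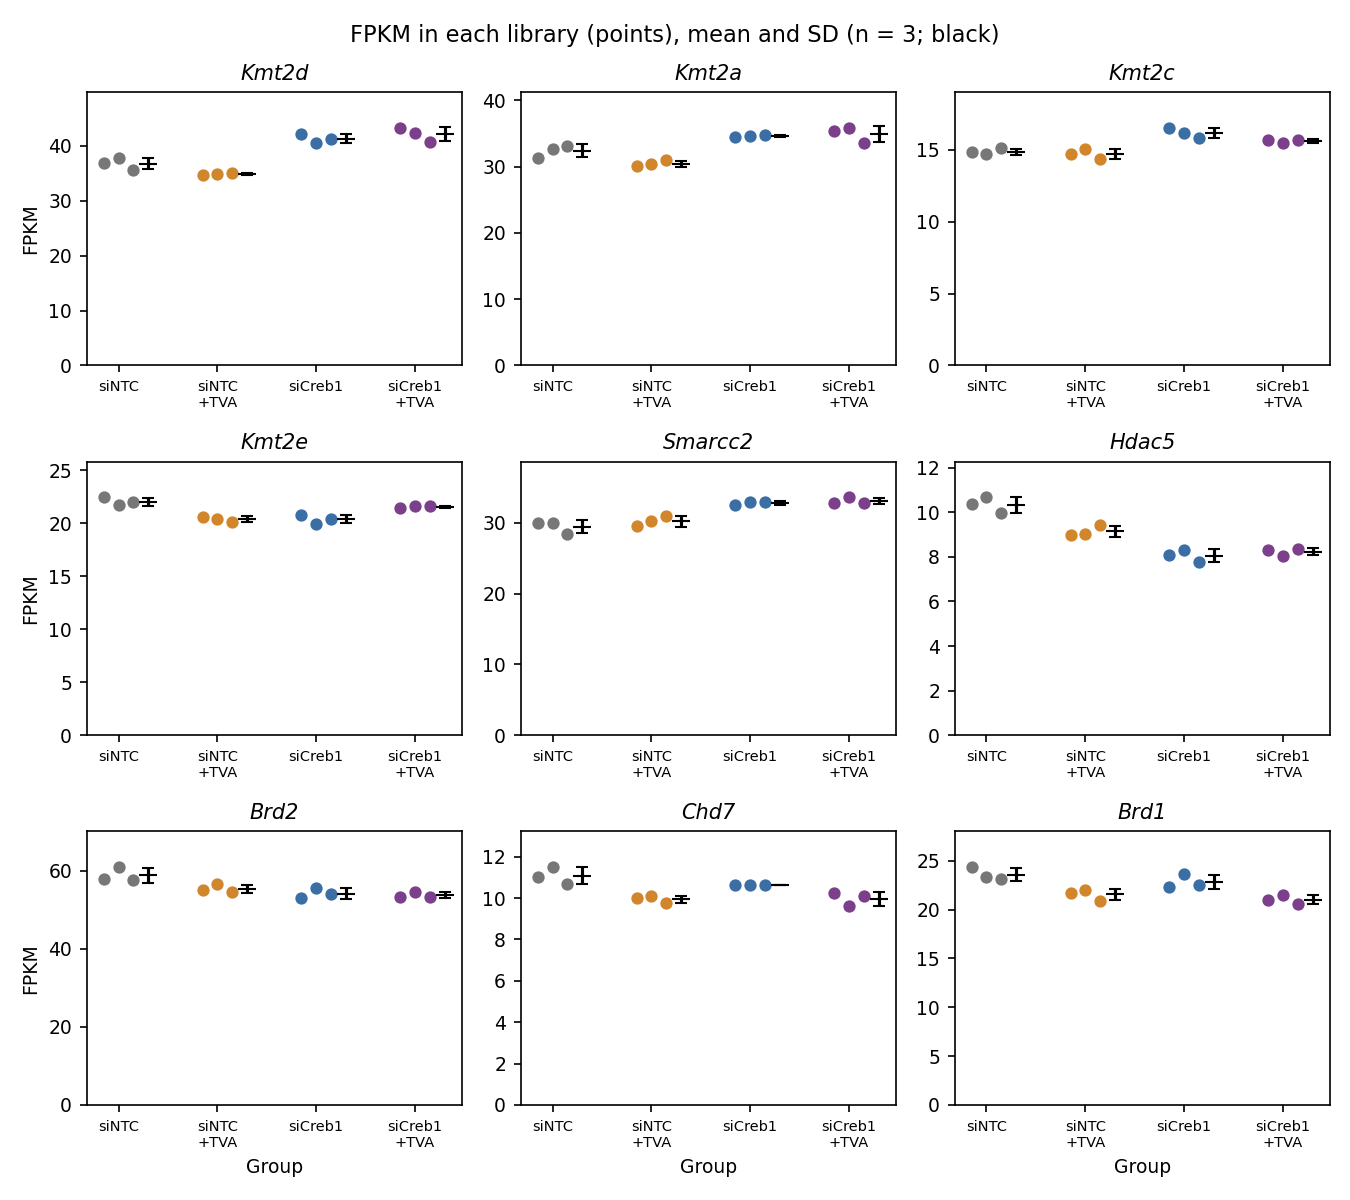
FPKM on the y axis (from 0) in each of the 12 libraries, by group on the x axis, for 9 members; black marks are the mean and SD of 3 libraries. Kmt2d, Kmt2a, Kmt2c and Smarcc2 are higher and Hdac5 lower in all 6 siCreb1 libraries than in all 6 siNTC libraries, and Chd7 and Brd1 are lower in all 6 TVA libraries.

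Hdac5, a class IIa deacetylase that shuttles between nucleus and cytoplasm and represses MEF2 targets, had the widest difference of all members. Its promoter is shown because it holds the short motif TGACG, the core of the CRE to which CREB binds, and because the gene fell with the knockdown. That motif, on either strand, was in 37.9% of all tested genes with a promoter window and 32.4% of such members. Whether CREB binds at Hdac5 was not tested. In the lines below, taken from RefSeq windows on GRCm38.p6, lower case is the sequence 5′ to 3′ on the gene's strand and capitals mark TGACG or its reverse complement CGTCA. The Hdac5 stretch is chr11:102230148-102230252 on the minus strand, with motifs that begin 8 and 17 bases after the RefSeq start.
Hdac5: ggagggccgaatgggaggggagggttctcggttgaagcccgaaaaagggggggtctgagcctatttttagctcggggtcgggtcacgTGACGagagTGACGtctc

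The gene (chr11:102194432-102230166, minus strand) stood at 10.4, 10.7 and 9.96 FPKM in the siNTC libraries, 8.99, 9.03 and 9.44 in siNTC + TVA, 8.11, 8.31 and 7.75 in siCreb1 and 8.32, 8.04 and 8.36 in siCreb1 + TVA. All 6 siCreb1 libraries lay below all 6 siNTC libraries, and among siNTC cells the TVA libraries lay below those without TVA. Without TVA, knockdown lowered it by 0.32 ± 0.04 (SE, adjusted p = 0.000585, limma), a call kept in all 23 alternatives. With TVA the knockdown difference was -0.14 ± 0.04 (adjusted p = 0.0461, limma), kept in 7 of 23 (adjusted p 0.0388 to 0.29). TVA lowered it in siNTC cells (-0.16 ± 0.04, adjusted p = 0.0291, limma, kept in 15 of 23, adjusted p 0.0251 to 0.123) against the same siNTC libraries as the knockdown without TVA. The knockdown call with TVA was lost without siNTC replicate 1, any siNTC + TVA library, siCreb1 replicate 1 or 2 or any siCreb1 + TVA library, and the TVA call without siNTC replicate 1 or 2 or siNTC + TVA replicate 1 or 2. In siCreb1 cells its TVA difference was 0.03 ± 0.04, and the interaction of 0.19 ± 0.05 was not called (adjusted p = 0.117, limma).

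The other deacetylases did not pass the test. Hdac7, the most abundant class IIa gene, stood at 53.6 ± 1.42 FPKM (SD, n = 3) in siNTC and 53.8 ± 1.95 in siCreb1, and the Hdac7 to Hdac5 ratio was 5.19 ± 0.145 in siNTC, 5.86 ± 0.233 in siNTC + TVA, 6.68 ± 0.477 in siCreb1 and 6.90 ± 0.225 in siCreb1 + TVA. Hdac4, also of class IIa, stood at 6.91 ± 0.0638 in siNTC and 6.17 ± 0.336 in siCreb1 (adjusted p = 0.0698, limma). The class I enzymes Hdac1 and Hdac2, which work in NuRD and Sin3 complexes, Hdac3, which works in NCoR, and Hdac8 all had TVA differences above 0 in siNTC cells, between 0.06 ± 0.08 and 0.12 ± 0.06 (SE), under every scaling tried, but none was called. Hdac10, a polyamine deacetylase singled out after its values were seen, had the largest TVA difference in siCreb1 cells, -0.25 ± 0.06 (adjusted p = 0.192, limma). No sirtuin was called, beside 0.537% to 13.7% of all tested genes across the 5 comparisons. With TVA in siNTC cells, where the class I genes lay above 0, so did 5510 of all 11550 tested genes.

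Of 16 demethylases, 1 was called in 1 comparison, knockdown with TVA, where 5.51% of all tested genes were called lower. Kdm4c, which demethylates H3K9 and H3K36, was lower after knockdown in TVA-treated cells, at 10.2 ± 0.276 against 9.41 ± 0.0623 FPKM (SD, n = 3), a difference of -0.11 ± 0.03 (SE, adjusted p = 0.0495, limma). The call was kept in only 3 of 23 alternatives (adjusted p 0.0422 to 0.397) and was lost whenever any 1 of the 12 libraries was left out. With TVA in siNTC cells, 11 of 16 Kdm genes lay below 0 under every scaling, beside 6038 of all 11550 tested genes in the main fit. None of the 16 was called, against 2.88% of all tested genes called lower. The lowest was Kdm5b, an H3K4 demethylase, at -0.18 ± 0.06 (adjusted p = 0.119, limma). After knockdown without TVA, 13 of 16 lay below 0 in FPKM but only 6 of 16 in TPM, so no direction is given for that family.

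**Figure D5:**
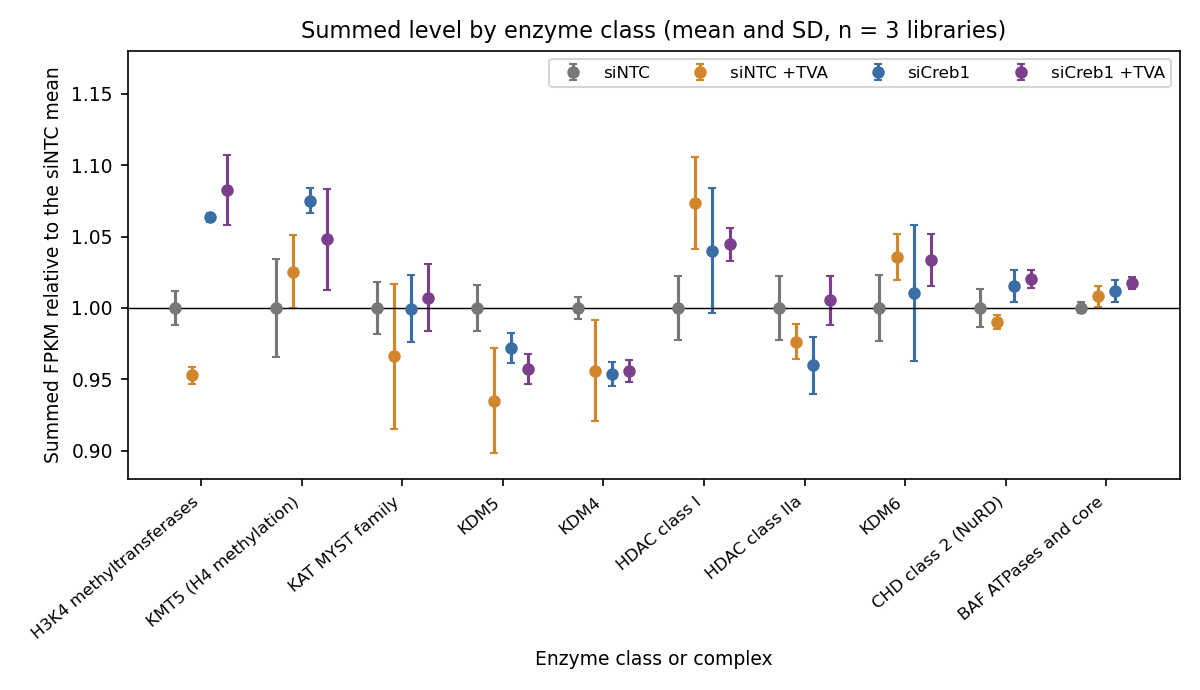
Summed FPKM of the genes of 10 enzyme classes or complexes, relative to the siNTC mean, as mean and SD of 3 libraries for each group. Genes of a class below a mean of 1 FPKM are included, and the y axis does not start at 0. The H3K4 methyltransferases run from 115.3 FPKM in siNTC + TVA to 131.0 in siCreb1 + TVA, while the BAF ATPases and core subunits stay within 192.7 and 196.0. Not every class is drawn, and the classes were grouped after the values were seen. Some left out moved more for their size. The mitochondrial sirtuins went from 4.741 FPKM in siNTC to 6.195 in siCreb1 + TVA, and the class IIb deacetylases from 13.25 to 11.13.

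Brd2, a BET protein, fell after knockdown without TVA. It stood at 57.8, 60.9 and 57.6 FPKM in the siNTC libraries, 54.9, 56.5 and 54.6 in siNTC + TVA, 52.9, 55.6 and 53.9 in siCreb1 and 53.2, 54.6 and 53.3 in siCreb1 + TVA. It fell without TVA (-0.12 ± 0.03, SE, adjusted p = 0.0222, limma, kept in 17 of 23 alternatives, adjusted p 0.0103 to 0.177), and siNTC libraries lay above siCreb1 libraries. The call was lost without siNTC replicate 2 or siCreb1 replicate 1 or 3. With TVA the knockdown difference was -0.04 ± 0.03 and was not called. Of its exon bases, 9.78% overlap other genes on either strand, the largest overlap being on the opposite strand.

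Brd8, a subunit of the TIP60 acetyltransferase complex, rose without TVA from 9.19 ± 0.145 to 10.4 ± 0.148 FPKM (SD, n = 3), a difference of 0.16 ± 0.05 (SE, adjusted p = 0.0444, limma, kept in 9 of 23, adjusted p 0.00334 to 0.114). That call was lost without any siNTC library, siNTC + TVA replicate 2, any siCreb1 library or any siCreb1 + TVA library. Brd3, Brd7 and Brd9, the last 2 being PBAF and non-canonical BAF subunits, were not called.

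Smarcc2 (BAF170), a scaffold of the BAF core, was the remodeller subunit called after knockdown both without and with TVA. It stood at 30.01, 30.1 and 28.4 FPKM in the siNTC libraries, 29.5, 30.2 and 31.04 in siNTC + TVA, 32.5, 32.9 and 32.9 in siCreb1 and 32.7, 33.6 and 32.9 in siCreb1 + TVA. All 6 siCreb1 libraries lay above all 6 siNTC libraries, with a mean 1.10 times as high. The rise was 0.15 ± 0.03 without TVA (SE, adjusted p = 0.00756, limma, kept in all 23 alternatives) and 0.12 ± 0.03 with TVA (adjusted p = 0.0221, limma, kept in 18 of 23). The call with TVA was lost without siNTC + TVA replicate 1 or 2 or any siCreb1 + TVA library. Its ratio to the paralogous scaffold Smarcc1 was 1.81 ± 0.0647 in siNTC, 1.79 ± 0.0572 in siNTC + TVA, 1.93 ± 0.0514 in siCreb1 and 1.99 ± 0.0388 in siCreb1 + TVA. The other 10 Smarc genes, ATPases included, were not called in any comparison, beside 0.537% to 13.7% of all tested genes across the 5 comparisons. Smarca4 was at 31.3 ± 0.712 and 32.7 ± 1.09 FPKM in its lowest and highest group.

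Chd7, a remodeller that works at enhancers, stood at 11.04, 11.5 and 10.7 FPKM in the siNTC libraries, 10.0, 10.1 and 9.75 in siNTC + TVA, 10.6, 10.6 and 10.7 in siCreb1 and 10.2, 9.60 and 10.1 in siCreb1 + TVA. All 6 TVA libraries lay below all 6 libraries without TVA, as for Brd1, against 0.684% of all tested genes that were lower and 0.719% that were higher in this way. The TVA difference was -0.14 ± 0.03 in siNTC cells (SE, adjusted p = 0.0333, limma, kept in 11 of 23 alternatives, adjusted p 0.0137 to 0.145) and -0.09 ± 0.03 in siCreb1 cells (adjusted p = 0.472, limma). Chd8, its relative that restrains Wnt signalling, rose after knockdown with TVA, from 12.7 ± 0.170 to 13.8 ± 0.299 FPKM (SD, n = 3, difference 0.11 ± 0.03, adjusted p = 0.0485, limma, kept in 6 of 23, adjusted p 0.00397 to 0.149). Chd4 rose after knockdown without TVA, from 65.7 ± 1.78 to 70.01 ± 0.774 FPKM (0.09 ± 0.02, adjusted p = 0.0231, limma, kept in 16 of 23, adjusted p 0.000972 to 0.114). The Chd7 call was lost without siNTC replicate 1 or 2, any siNTC + TVA library or any siCreb1 library, the Chd8 call without any siNTC library, any siNTC + TVA library, siCreb1 replicate 1 or 2 or any siCreb1 + TVA library, and the Chd4 call without siNTC replicate 2 or 3 or any siCreb1 library. The other NuRD ATPase gene, Chd3, was not called, and the Chd3 to Chd4 ratio was 1.78 ± 0.0387 in siNTC and 1.65 ± 0.00144 in siCreb1.

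All 9 Arid genes, most of them subunits of remodelling or corepressor complexes, had TVA differences below 0 in siNTC cells, from -0.14 ± 0.04 to -0.02 ± 0.09 (SE), under every scaling tried. In the main fit 6038 of all 11550 tested genes lay below 0. Of the 9 Arid genes 1 was called, against 2.88% of all tested genes called lower. That gene, Arid5a, stood at 14.2, 14.99 and 14.0 FPKM in siNTC and 13.6, 12.6 and 12.7 in siNTC + TVA (adjusted p = 0.0389, limma, kept in 7 of 23, adjusted p 0.0157 to 0.179), and its libraries did not overlap. The call was lost without siNTC replicate 1 or 2, siNTC + TVA replicate 2 or 3, any siCreb1 library or any siCreb1 + TVA library. Arid1a was at 37.1 ± 0.369 and 35.6 ± 0.829 FPKM in these groups (SD, n = 3) and was not called, nor were the PBAF subunit Arid2 or the Sin3-associated Arid4a and Arid4b.

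TVA in siCreb1 cells gave no called member. The count at an unadjusted p under 0.05 was 10 of 96, 5 in each direction, against 9.58% of all tested genes, 4.19% higher and 5.39% lower, and limma-voom on the recovered reads also called 0. Of all tested genes, 0.537% were called in this comparison. The libraries did not overlap for 8 members that were higher and 11 that were lower, against 8.09% and 9.01% of all tested genes. The members' interquartile range was 0.0643 on the log2 scale, against 0.105 for all tested genes, whose median level and length were lower. The part of level and length in this range was not tested.

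Knockdown without TVA called 9 members, 6 higher and 3 lower, against 13.7% of all tested genes, 6.52% higher and 7.21% lower. The higher ones were Kmt2d, Kmt2c, Kmt5a, Brd8, Smarcc2 and Chd4, and the lower ones were Hdac5, Brd2 and Kmt2e. Leaving out 1 library gave 4 to 10 calls, with 4 without siCreb1 replicate 2. Scaled to TPM the calls were 6 higher and 1 lower, and by limma-voom 12 higher and 4 lower. At an unadjusted p under 0.05, 14 members were higher and 11 lower, against 13.6% and 14.5% of all tested genes, and the libraries did not overlap for 19 and 15, against 15.5% and 16.0%. The median difference of the members was 0.002 in FPKM, beside -0.001 for all tested genes, and ranged from -0.005 with median centring to 0.048 in TPM, where all tested genes stood at 0.043.

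Knockdown with TVA called 7 members, 5 higher and 2 lower, against 10.1% of all tested genes, 4.64% higher and 5.51% lower. Kmt2d, Kmt2a, Smarcc2 and Chd8 were among the higher ones, and the lower ones were Hdac5 and Kdm4c. The split moved with the scaling: 3 higher and 2 lower with median centring, 9 higher and 1 lower after quantile normalization, 4 and 0 in TPM, 8 and 0 with library sizes from the recovered reads, and 18 and 0 by limma-voom. Leaving out 1 library gave 2 to 6 calls, with 2 without siNTC + TVA replicate 1 or 2 or siCreb1 + TVA replicate 2 or 3. At an unadjusted p under 0.05, 19 members were higher and 4 lower, against 11.6% and 14.6% of all tested genes, and the libraries did not overlap for 28 and 9, against 14.3% and 17.6%. The median was 0.04 over the members and -0.01 over all tested genes, and all 9 Chd genes lay above 0, except 1 of them with median centring, with 1 called. Beside them, 5312 of all 11550 tested genes lay above 0 in the main fit.

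Other measures moved with this comparison, and their part in it was not tested. The members are long genes, with a median length of 7032 bases against 3738 for all tested genes, and 71 of 96 are among the longest 1 in 3. In that tercile the median difference over all tested genes was 0.02, against -0.04 in the shortest tercile. The depth was 16660234 to 20263843 reads in siNTC + TVA and 21804748 to 24602484 in siCreb1 + TVA. The library size that the deposited FPKM imply was 0.999 to 1.00 times the summed reads in siNTC + TVA and 1.01 to 1.02 times in siCreb1 + TVA. Both measures also differed between the groups without TVA. There the depth was 17523623 to 20758033 reads in siNTC and 20760297 to 22192484 in siCreb1. The implied library size was 0.987 to 0.999 times the summed reads in siNTC and 1.005 to 1.007 times in siCreb1.

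Across both TVA states, 8 members were higher in all 6 siCreb1 libraries than in all 6 siNTC libraries, Kmt2a, Kmt2c, Kmt2d, Setdb1, Smarcc2, Chd4 and Chd8 among them, and Hdac5 alone was lower in this way. Of all tested genes, 4.01% were higher and 4.26% lower without overlap. The ratio of the means ran from 1.04 for Chd4 to 1.17 for Kmt2d, and was 0.836 for Hdac5.

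Promoter windows of 300 bases, from 250 before to 50 after the RefSeq start, were found for 71 of 96 members. The full palindromic CRE, 8 bases that hold TGACG on both strands, was in 0 of the 71 and in 3.84% of all tested genes with a window. TGACG or CGTCA on its own was in 32.4% of the members' promoters and 37.9% of those of all tested genes. CpG was dense, with a median of 28.0 per window against 23.0. Of the 16 members called in any comparison, 12 had a window, and 4 of these held the short motif: Hdac5, Chd4, Brd2 and Kdm4c. The Chd4 stretch is chr6:125095881-125095980 on the plus strand, with a motif 27 bases before the start, and the Brd2 stretch is chr17:34121838-34121937 on the minus strand, upstream of 1 of several starts, with a motif 154 bases before it. They are shown beside Hdac5 because Chd4 rose and Brd2 fell after knockdown while each holds the same letters or their reverse complement, and a match describes the letters only.
Chd4: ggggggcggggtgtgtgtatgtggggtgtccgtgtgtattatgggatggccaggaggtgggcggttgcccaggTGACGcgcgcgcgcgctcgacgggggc
Brd2: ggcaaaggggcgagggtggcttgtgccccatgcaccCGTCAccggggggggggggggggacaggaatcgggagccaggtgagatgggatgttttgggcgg

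Of 202 chromatin genes outside these families, listed by role with earlier results of these data known, 191 were tested. With TVA in siNTC cells 39 of them were called higher and 6 lower, against 4.49% and 2.88% of all tested genes. The higher ones were mostly histone chaperones (9 of 17), heterochromatin and structural proteins (14 of 27) and the Polycomb complex PRC2 (6 of 10). The 5 with the widest difference were Hmgn2 at 0.75, the replication-linked remodeller Hells at 0.72, the condensin subunit Ncaph at 0.65, Uhrf1, which maintains DNA methylation, at 0.62, and the chaperone Asf1b at 0.60. A list of 25 proliferation genes moved with them, from a summed 573 to 582 FPKM in siNTC to 796 to 801 in siNTC + TVA, with 23 called higher.

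In the same 191 genes, TVA in siCreb1 cells called 1, against 0.537% of all tested genes. Knockdown without TVA called 31 higher and 6 lower, against 6.52% and 7.21%, and knockdown with TVA called 8 higher and 15 lower, against 4.64% and 5.51%. The interaction called 21, all below 0, against 2.24% in either direction. The proliferation list summed to 698 to 702 FPKM in siCreb1 and 717 to 729 in siCreb1 + TVA, and its part in these counts was not tested. With TVA in siNTC cells, beside the 4.49% higher and 2.88% lower of all tested genes, the other lists held these calls. Of 18 PRC1 genes 1 was higher and 2 lower, of 11 DNA methylation genes 2 were higher, and of 20 other remodellers 3 were higher. Of 21 other acetyltransferases 1 was higher, of 21 other lysine methyltransferases 2 were higher and 1 lower, of 9 other demethylases 1 was lower, and of 17 deacetylase corepressors 1 was higher. None of 8 arginine methyltransferases and none of 12 other BAF and PBAF subunits was called.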

How the data were processed

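RNA was sequenced from 12 libraries of primary mouse CD8+ T cells in 4 groups of 3, as the labels give them. The authors deposited 1 FPKM value per gene and library with gene length and coordinates on GRCm38. The aligner, the counter and its strand setting are not given in the sources used here. FPKM times length gave whole reads for at least 99.995% of the genes above 0, and these gave 16660234 to 24602484 reads per library. A value counted as whole within 0.02 reads, or within a margin that grew with the count for genes with many reads. At the highest counts that margin let any value pass. No molecular identifiers are given, so reads are not known to be separate molecules.

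Genes with a mean of at least 1 FPKM (11550) were tested with limma 3.58.1 in R 4.3.3 on log2(FPKM + 1), all 12 libraries in 1 fit with a mean-variance trend, two-sided, with Benjamini-Hochberg adjustment over all tested genes at 0.05. The 5 comparisons share libraries: TVA in siNTC cells and knockdown without TVA have the same siNTC controls. The script was tested on simulated data with changes larger than those of the called members, so recovery at their size was not tested. Members and lists (12 of other chromatin genes, 1 of proliferation, 7 of cell type markers, Y-linked genes, Xist) were chosen with earlier results of these data known; the enzyme classes were grouped after the values were seen. Named genes were Creb1, every member called in any comparison, the highest and lowest member of each family, the 3 genes on each side of 1 FPKM, members named for their role, and up to 5 called genes of the lists per comparison; others are said to have been singled out. A few members are counted but not reported by name here. Alternatives changed the pseudocount, filter, unit, normalization, trend, block, test or libraries. One name on the chaperone list matched no gene. Promoters are RefSeq windows on GRCm38.p6; exon overlaps are from GENCODE.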

Additional observations from a re-analysis of the deposited data

Results flagged for a closer look

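Kmt2e was the member whose TVA effect differed between siNTC and siCreb1 cells in a test of the difference itself: the effect in siCreb1 cells minus that in siNTC cells was 0.184 on the log2(FPKM + 1) scale (SE 0.03, adjusted p = 0.0217, limma). The call was kept in 14 of 22 alternatives (adjusted p 0.00396 to 0.12) and was lost in TPM and without any 1 of 7 libraries. In siCreb1 cells alone the TVA difference was not called (adjusted p = 0.328, limma). All 3 siNTC + TVA libraries lay below all 3 siNTC libraries, as for 12.2% of all tested genes. All 3 siCreb1 + TVA libraries lay above all 3 siCreb1 libraries, as for 8.09% of all tested genes.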

How the results depend on the processing

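Alternative values were counted for results called in the main fit, Creb1 in both knockdown comparisons among them, so uncalled results did not enter. Among these 551 values, 373 kept their direction and side of the threshold, 178 kept their direction but lost the call, and 0 reversed. Hdac5, Kmt2d and Smarcc2 after knockdown without TVA, Kmt2d and Kmt2a after knockdown with TVA, and Creb1 in both kept their calls in all 23 alternatives. The number of members called with TVA in siNTC cells was 5 in the main fit, 1 with no filter on low genes and 0 in TPM. It was 3 with the replicate block, 2 of them among the 5, and 3 without a mean-variance trend. With library sizes from the recovered reads (added after the data were seen) it was 3, and with only the 6 compared libraries it was 0. Leaving out 1 library gave 0 to 3, with 0 without siNTC + TVA replicate 2 and 1 without siNTC + TVA replicate 3. Without siNTC replicate 1 it was 1, a member not among the 5. After knockdown without TVA, 9 members were called in the main fit, 16 by limma-voom on the recovered reads and 4 with only the compared libraries. With 1 library left out the number was 4 to 10, with 4 without siCreb1 replicate 2 and 5 without siNTC replicate 2 or siCreb1 replicate 1 or 3. After knockdown with TVA, 7 members were called in the main fit, 4 with no filter, 4 in TPM, 3 with the replicate block and 3 without the trend. By limma-voom 18 were called, 5 of them among the 7, and 3 with only the compared libraries. With 1 library left out the number was 2 to 6. It was 2 without siNTC + TVA replicate 1 or 2 or siCreb1 + TVA replicate 2 or 3. It was 3 without siCreb1 replicate 1 or siCreb1 + TVA replicate 1, and 4 without siNTC + TVA replicate 3 or siCreb1 replicate 2. For the interaction 1 member was called in the main fit, 0 in TPM, 2 by limma-voom and 0 to 2 with 1 library left out. TVA in siCreb1 cells gave 0 calls under every alternative. Same-numbered libraries did not deviate together (correlations of -0.0593 to 0.0595 over 18 pairs), so the replicate numbers are not taken to pair the samples. Differences of about 0.1 on the log2 scale are near what 3 libraries a group can separate here, with SE of 0.02 to 0.05 for the called members.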
